A study of Mus musculus with 6 samples.

Results

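The respiratory chain genes of the mesonephros were followed in male mouse embryos of embryonic day E12.5. There were 6 embryos, 3 of the Wnt9b control group and 3 of the Wnt9b knockout group. The Wnt9b gene encodes a signalling protein released by the epithelium of the Wolffian duct. Members were taken by symbol: every row that starts with mt-, Nduf, Uqcr or Atp5, together with Sdha to Sdhd and the Cox4 to Cox8 genes. This gave 118 of the 20033 genes in the deposited table, and all 118 reached 1 TPM in at least 3 libraries, the level set for testing. TPM, a share of transcripts, is a length-corrected level with the same total in every library. Of the 118, 17 rows belong to the mitochondrial genome (13 mRNAs, 2 ribosomal RNAs and 2 transfer RNAs) and 101 to the nucleus. The nuclear rows are 85 subunits (39 of complex I, 4 of complex II, 8 of complex III, 17 of complex IV and 17 of complex V), 8 complex I assembly factors named Ndufaf, the ATP synthase inhibitor Atp5if1 and 7 rows named as pseudogenes. The symbol rule misses some subunits, such as the cytochrome c1 gene Cyc1. It takes in Ndufa4 and Ndufa4l2, which are counted here with complex IV.

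The knockout was global, so the gene was disrupted in every cell of the embryo and not in the duct alone. For the controls, the genotype label reads heterozygous whereas the design text gives Wnt9b+/+, and the neutral name control is used. The Wnt9b row was at 24.9, 26.4 and 34.0 TPM in the controls and at 23.4, 19.2 and 19.0 TPM in the knockouts, lower in each knockout but not absent, and it may hold reads from exons outside the disrupted part. Each library was made from the mesonephros of its own embryo, by poly(A) selection, and litter, batch and date are not given. The p-values therefore measure the spread between these 6 embryos. Whole reads recovered from the TPM values summed to between 28687415 and 33574278 per library, and these totals are lower bounds.

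The respiratory chain of the inner mitochondrial membrane passes electrons from NADH and succinate to oxygen through complexes I to IV, and complex V, the ATP synthase, uses the proton gradient that results. Most subunits are encoded in the nucleus, translated in the cytosol and imported. A small core of hydrophobic subunits of complexes I, III, IV and V is encoded by mitochondrial DNA and made on mitochondrial ribosomes, whose 2 RNAs come from the same genome, whereas complex II is wholly nuclear. Long transcripts of mitochondrial DNA are cut into single RNAs, and most of the mRNAs receive a short poly(A) tail.

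Across both genomes, 105 of the 118 members lay higher in the knockout mean, where 48.2% of the 17577 tested genes did, and the differences were small. The median log2 difference (knockout minus control, on the log2(TPM + 1) scale) was 0.13 for the members and -0.0075 for all tested genes. Genes higher in the knockout mean were counted by the sign of their log2 difference, here and below. No single member passed the test: limma called 0 higher and 0 lower at an adjusted p under 0.05, beside 0.131% of all tested genes higher and 0.313% lower. At an unadjusted p under 0.05, 25 members were higher (background 5.35%) and 2 lower (background 5.92%). All 3 knockout values lay above all 3 control values for 26 members, or 22%, beside 8.14% of tested genes. The reverse held for 3 members, beside 8.49%. Among the 2831 genes at or above the lower quartile of the nuclear subunits (a mean of 68.9 TPM), 11.9% lay higher and 7.28% lower without overlap. The median log2 difference of those genes was 0.020. The count of 26 became 55 without control 1, where the background was 12.0%, and 42 without knockout 3, where it was 16.0%. In the authors' deposited table, 0 members were higher (background 1.38%) and 2 were lower (background 2.17%) at an adjusted p under 0.05, both of them mitochondrial ribosomal RNAs.

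**Figure D1:**
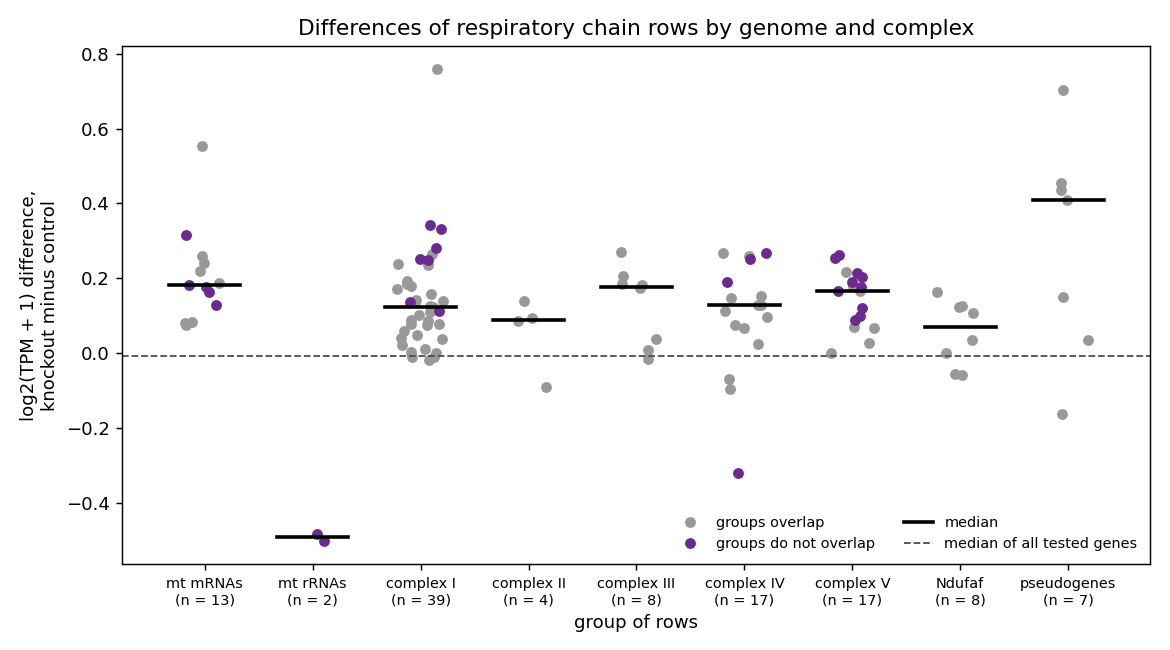
Log2(TPM + 1) difference, knockout minus control, of every member except the 2 transfer RNAs and Atp5if1, by genome and complex. Each point is a gene, purple where the 3 control and 3 knockout values do not overlap; bars are group medians and the dashed line is the median of all tested genes. The medians of complexes I to V lie between 0.09 and 0.18, and both mitochondrial ribosomal RNAs lie below -0.4.

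The mitochondrial mRNAs fall into 2 ranges of level, and the sequences show a feature that runs along with this split. In the GENCODE M21 transcripts (GRCm38), 5 of the 13 mRNAs share at least 98.3% of their length, in an unbroken identical run, with an unprocessed pseudogene of chromosome 1. These are mt-Co2, mt-Atp6, mt-Co3, mt-Nd3 and mt-Nd4l, and their values ran from 16.5 to 172 TPM. Of the other 8 mRNAs, 7 ran from 2254 to 20716 TPM, although mt-Nd4 shares 876 of 1378 bases with such a copy and mt-Co1 479 of 1545. The remaining mRNA, mt-Atp8, was low at 8.55 to 20.5 TPM, with 43 of its 204 bases in such a run. Those bases are its last, 162 to 204, and lie in the same copy as the run of mt-Atp6. Only annotated transcripts were searched, so a copy of the rest of mt-Atp8 outside them would have been missed. The handling of reads that match several places is not stated in the material used, and its part in these levels was not tested. The stretches below are shown because they compare mRNAs identical to a copy over nearly all of their length (mt-Co2, mt-Nd3) with mRNAs identical over a part (mt-Nd4, mt-Co1). Capitals mark bases within the run identical to the chromosome 1 copy, so a stretch all in capitals cannot be told from that copy. In mt-Nd4 and mt-Co1 the printed stretch spans the place where the identity ends or begins.
mt-Co2: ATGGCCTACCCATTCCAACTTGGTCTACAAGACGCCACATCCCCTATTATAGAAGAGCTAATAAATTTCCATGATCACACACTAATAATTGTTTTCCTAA
mt-Nd3: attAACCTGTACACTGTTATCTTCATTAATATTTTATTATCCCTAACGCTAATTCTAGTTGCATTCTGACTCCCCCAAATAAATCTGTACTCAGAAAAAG
mt-Nd4: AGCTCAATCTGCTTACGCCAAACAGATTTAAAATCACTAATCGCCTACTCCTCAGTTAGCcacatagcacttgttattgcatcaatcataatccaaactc
mt-Co1: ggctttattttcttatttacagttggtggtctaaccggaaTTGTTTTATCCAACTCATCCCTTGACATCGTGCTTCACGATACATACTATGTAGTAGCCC

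The copies have rows of their own. Gm28661, which holds 681 of the 684 bases of mt-Co2, was at 137, 129 and 134 TPM in the controls and at 155, 159 and 155 TPM in the knockouts. The mt-Co2 row itself was at 121, 107 and 128 TPM in the controls and at 154, 149 and 140 TPM in the knockouts. Both rows lay higher in every knockout than in any control, and their levels were alike.

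**Figure D2:**
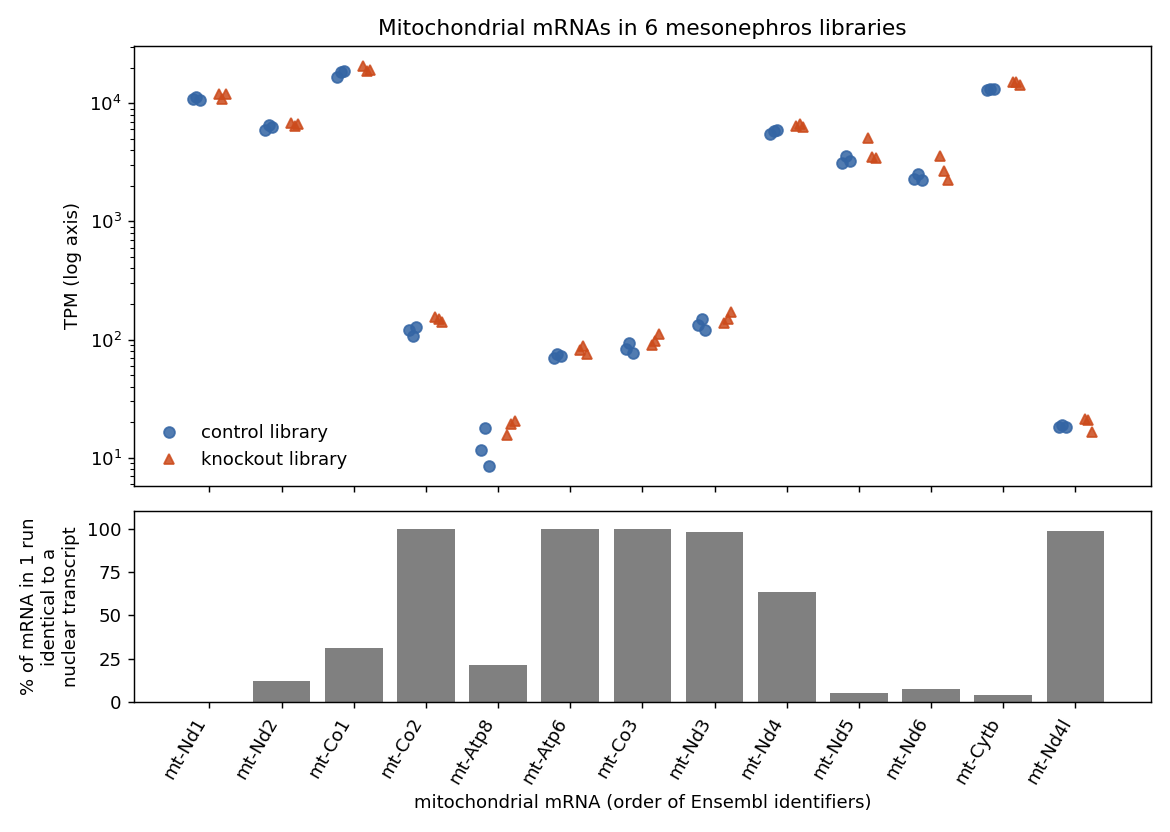
Top, TPM (log axis) of the 13 mitochondrial mRNAs in each library, circles for the 3 controls and triangles for the 3 knockouts. Bottom, the percentage of each mRNA that lies in 1 identical run of a nuclear transcript; the 5 mRNAs above 90% lie between 16.5 and 172 TPM.

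All 13 mitochondrial mRNAs lay higher in the knockout mean, with a median log2 difference of 0.18 and a range from 0.074 to 0.55. Their sum was 57937, 61819 and 60480 TPM in the controls and 70197, 64646 and 64647 TPM in the knockouts. The knockout sums lay above all control sums, by 10.7% between the means (60079 ± 1972 against 66496 ± 3205, SD, n = 3). The first knockout stood highest, and the sums of the other knockouts lay close to each other and not far above control 2. No mRNA passed limma over all genes. The groups did not overlap for 5 of the 13, or 38.5%, beside 8.14% of all tested genes higher: mt-Co1, mt-Co2, mt-Nd4, mt-Cytb and mt-Atp6.

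The complex I mRNAs encode subunits of the membrane arm. The mRNA mt-Nd4 was at 5547, 5850 and 5977 TPM in the controls and at 6426, 6684 and 6353 TPM in the knockouts, a log2 difference of 0.16 with SE 0.077 (limma, adjusted p = 0.482). Its groups did not overlap. For mt-Nd1 (10948 ± 349 against 11591 ± 651 TPM) and mt-Nd2 (6244 ± 278 against 6618 ± 142 TPM) the groups overlapped, with log2 differences of 0.08 each. The mRNA mt-Nd5 was at 3117, 3565 and 3236 TPM in the controls and at 5113, 3494 and 3461 TPM in the knockouts. Its neighbour mt-Nd6, the only mRNA of the other strand, was at 2283, 2536 and 2259 TPM in the controls and at 3557, 2691 and 2254 TPM in the knockouts. For both, knockout 1 stood apart above all other libraries while the other knockouts lay among or near the controls. Without knockout 1, the log2 differences of mt-Nd5 and mt-Nd6 went from 0.26 and 0.24 to 0.075 and 0.064, and that of mt-Nd6 was 0.39 without knockout 3. Whether counting used strand is not stated in the material used. The 2 lower complex I mRNAs, mt-Nd3 (135 ± 14.7 against 153 ± 16.7 TPM) and mt-Nd4l (18.4 ± 0.355 against 19.5 ± 2.64 TPM), overlapped between the groups.

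The complex III mRNA mt-Cytb, for cytochrome b, was at 12957, 13297 and 13113 TPM in the controls and at 15229, 15170 and 14319 TPM in the knockouts. All knockouts lay above all controls, with which gives 0.18 as the log2 difference (SE 0.089; adjusted p = 0.500, limma). In the authors' deposited table its log2 fold change is 0.19, with an adjusted p of 0.0819. The mRNAs for the catalytic core of complex IV followed the same direction. The most abundant of all members, mt-Co1, was at 16739, 18261 and 18600 TPM in the controls and at 20716, 18765 and 19069 TPM in the knockouts, without overlap but by a narrow margin. Among the mitochondrial mRNAs, mt-Co2 had the smallest adjusted p, 0.176 in limma, with a log2 difference of 0.32 (SE 0.080). The values of mt-Co3 (85.1 ± 8.69 against 99.4 ± 11.5 TPM) overlapped.

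For complex V, the proton channel subunit mRNA mt-Atp6 was at 69.3, 74.8 and 71.9 TPM in the controls and at 80.9, 88.3 and 75.9 TPM in the knockouts. The groups were separate, with a log2 difference of 0.18 (limma adjusted p = 0.430). Its partner mt-Atp8 had the largest log2 difference of the 13, 0.55 (SE 0.23; limma adjusted p = 0.429). This rests on 23, 30 and 14 reads in the controls and 29, 33 and 35 in the knockouts, and the groups overlapped. The transfer RNA rows mt-Te and mt-Tp had log2 differences of 0.14 and 0.058, both with overlap, and mt-Te held at most 15 reads in any library.

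The 2 mitochondrial ribosomal RNAs ran the other way. The small subunit RNA mt-Rnr1 was at 1858, 1912 and 1344 TPM in the controls and at 1274, 1081 and 1272 TPM in the knockouts, which gives -0.48 as the log2 difference (SE 0.14; adjusted p = 0.229, limma). The large subunit RNA mt-Rnr2 was at 1655, 1876 and 1311 TPM in the controls and at 1110, 1065 and 1214 TPM in the knockouts, which gives -0.50 as the log2 difference (SE 0.13; adjusted p = 0.171, limma). Every knockout lay below every control for both RNAs, and control 3 lay far closer to the knockouts than the other controls did. Limma-voom on the recovered reads put mt-Rnr2 past the threshold (adjusted p = 0.0497). Log2 fold changes in the authors' deposited table are -0.49 for mt-Rnr1 (adjusted p = 0.0018) and -0.51 for mt-Rnr2 (adjusted p = 0.00025). Over its other settings, the limma adjusted p of mt-Rnr2 ran from 0.0867 to 0.481.

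Because mRNAs and ribosomal RNAs come from the same genome, their ratio was taken within each library. Summed mitochondrial mRNA over summed mitochondrial ribosomal RNA was 16.5, 16.3 and 22.8 in the controls and 29.4, 30.1 and 26.0 in the knockouts (18.5 ± 3.68 against 28.5 ± 2.21). All knockout ratios exceeded all control ratios. The cytosolic 18S ribosomal RNA row Rn18s-rs5 moved in the same direction as mt-Rnr1 and mt-Rnr2, at 32339, 27899 and 25326 TPM in the controls and 18061, 16991 and 19859 TPM in the knockouts. The row Rn7sk, an RNA made without a poly(A) tail, was at 199, 176 and 185 TPM in the controls and at 140, 94.3 and 116 TPM in the knockouts. Neither overlapped between the groups (limma adjusted p = 0.105 for Rn18s-rs5 and 0.0832 for Rn7sk), and both were chosen after their values were seen. In the authors' deposited table the log2 fold changes are -0.64 for Rn18s-rs5 (adjusted p = 1.1e-08) and -0.67 for Rn7sk (adjusted p = 0.0033). Mitochondrial ribosomal RNAs carry at most very short A tails, and the libraries were selected for poly(A). Whether the carry-over of RNAs past that selection differed between the groups was not tested. With these 2 RNAs and both mitochondrial ribosomal RNAs left out of each library's total, the median log2 difference of the mitochondrial mRNAs was 0.17 and that of the nuclear members 0.11.

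**Figure D3:**
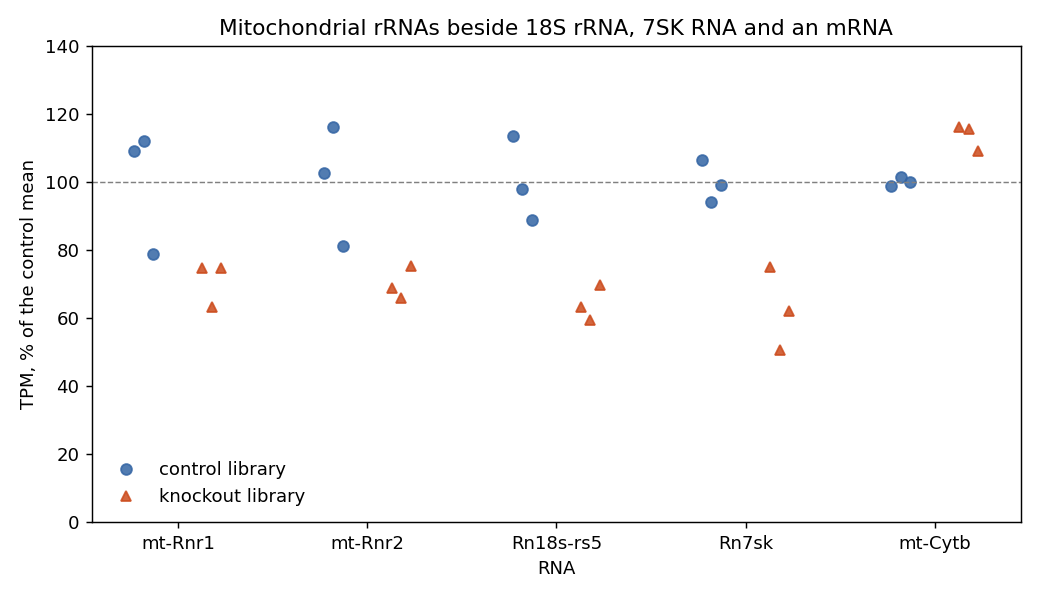
TPM as a percentage of the control mean for both mitochondrial ribosomal RNAs, the 18S row Rn18s-rs5, Rn7sk and the mRNA mt-Cytb, with circles for controls and triangles for knockouts. The knockouts lie below all controls for the 4 RNAs on the left and above them for mt-Cytb.

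Among the nuclear subunits, 77 of 85 lay higher in the knockout mean, with a median log2 difference of 0.13. The groups did not overlap for 20 higher, or 23.5%, and 1 lower. Beside this stand 8.14% of all tested genes higher and 8.49% lower, and 11.9% higher among genes at or above 68.9 TPM. Their sum was 15827, 14793 and 14415 TPM in the controls and 16132, 16577 and 16282 TPM in the knockouts, or 8.78% higher between the means. The knockout sums lay above all control sums, and control 1 was close to the lowest knockout. Control 1 was thus the highest control for the nuclear subunits and the lowest for the mitochondrial mRNAs. The ratio of mitochondrial mRNA to nuclear subunit TPM was 3.66, 4.18 and 4.20 in the controls and 4.35, 3.90 and 3.97 in the knockouts, which overlapped (4.01 ± 0.304 against 4.07 ± 0.243). The mean TPM of a nuclear subunit ranged from 2.13 for Ndufb4b to 772 for Atp5f1a, and 60 of the 85 exceeded 100 TPM.

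**Figure D4:**
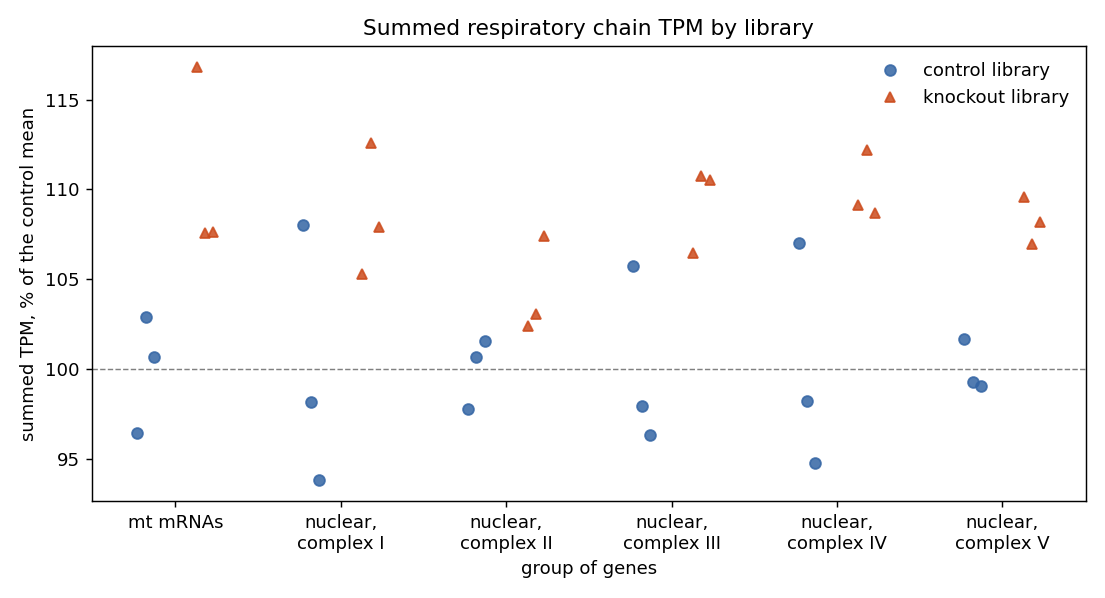
Summed TPM of the mitochondrial mRNAs and of the nuclear subunits of each complex, as a percentage of the control mean, per library (circles controls, triangles knockouts; the axis does not start at 0). The groups are separate for the mitochondrial mRNAs and for complexes II to V and overlap for complex I.

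Complex I, the NADH dehydrogenase, had 36 of 39 nuclear subunits higher in the knockout mean (median log2 difference 0.12). Of the 39, 7 lay higher without overlap, or 17.9%, beside 8.14% of all tested genes and 11.9% of genes at or above 68.9 TPM. The median was 0.073 without control 3 and 0.081 without knockout 2. Its summed TPM overlapped between the groups: 5022, 4563 and 4360 TPM in the controls against 4893, 5234 and 5015 TPM in the knockouts. The accessory subunit Ndufb4 had the smallest adjusted p of all members. It was at 39.9, 41.5 and 37.3 TPM in the controls and at 49.3, 51.8 and 49.0 TPM in the knockouts, which gives 0.33 as the log2 difference (SE 0.074; adjusted p = 0.126, limma). All knockouts lay clear of the controls. Ndufs8, an iron-sulfur subunit of the arm that leads electrons to ubiquinone, was at 148, 146 and 134 TPM in the controls and at 175, 174 and 160 TPM in the knockouts, also separate (log2 difference 0.25; limma adjusted p = 0.193). The accessory subunit Ndufb10 was at 126, 125 and 107 TPM in the controls and at 155, 172 and 130 TPM in the knockouts, a log2 difference of 0.34 (limma adjusted p = 0.281). The others without overlap were Ndufb3, Ndufc1, Ndufa10 and Ndufa7. Of the other core subunits, Ndufs1, which carries iron-sulfur clusters, was at 39.5 ± 0.831 against 39.0 ± 2.72 TPM, and Ndufv1, which binds NADH, at 151 ± 1.99 against 158 ± 5.97 TPM. The most abundant, Ndufa2, was at 366 ± 49.5 against 412 ± 52.7 TPM. The 8 Ndufaf assembly factors, which help to build complex I and are not part of it, had a median log2 difference of 0.071. None was free of overlap, beside 8.14% of all tested genes higher and 8.49% lower.

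Complex II, succinate dehydrogenase, had the lowest median log2 difference, 0.089. None of its 4 genes was free of overlap, beside 8.14% of all tested genes higher and 8.49% lower. Without knockout 2 the median was 0.051. The flavoprotein Sdha was at 167, 184 and 184 TPM in the controls and at 164, 163 and 175 TPM in the knockouts, the only subunit of the 4 with a lower knockout mean (log2 difference -0.09). Its control and knockout values overlapped. The iron-sulfur subunit Sdhb was at 142 ± 5.99 against 150 ± 4.28 TPM, and the membrane anchor Sdhd at 217 ± 9.98 against 239 ± 20.5 TPM.

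Complex III, which moves electrons from ubiquinol to cytochrome c, had a median log2 difference of 0.18 with 7 of 8 nuclear subunits higher in the knockout mean. None of the 8 lay higher without overlap, beside 8.14% of all tested genes and 11.9% of genes at or above 68.9 TPM. Uqcrb, a small accessory subunit, had the largest log2 difference, at 192, 162 and 156 TPM in the controls and 189, 203 and 223 TPM in the knockouts (0.27; SE 0.095; limma adjusted p = 0.325). Control 1 lay within the knockout range. The Rieske iron-sulfur protein Uqcrfs1 was at 193 ± 12.0 against 218 ± 17.2 TPM. The core protein Uqcrc1 was at 136 ± 7.42 against 134 ± 3.66 TPM. The most abundant, Uqcrh, was at 366 ± 18.5 against 375 ± 19.6 TPM. Cyc1, the cytochrome c1 subunit that the symbol rule does not take in, was at 163, 161 and 163 TPM in the controls and at 190, 200 and 178 TPM in the knockouts, without overlap (log2 difference 0.22; limma adjusted p = 0.223).

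Complex IV, cytochrome c oxidase, had 14 of 17 nuclear rows higher in the knockout mean (median log2 difference 0.13, and 0.080 without control 3). The matrix-side subunit Cox5a was at 32.9, 33.3 and 32.4 TPM in the controls and at 41.9, 40.9 and 36.8 TPM in the knockouts, which gives 0.27 as the log2 difference (SE 0.080; adjusted p = 0.244, limma). Like Cox5a, Cox5b and Cox8a showed no overlap. These 3 were 17.6% of the 17 rows, beside 8.14% of all tested genes higher and 11.9% of genes at or above 68.9 TPM. The most abundant, Cox8a, was at 706, 681 and 614 TPM in the controls and at 735, 758 and 785 TPM in the knockouts. Several subunits exist as isoforms, some of them best known from muscle, lung or testis, and the general form was the more abundant in every pair measured. Cox4i1 was at 469 ± 10.6 against 514 ± 47.1 TPM, while its lung-enriched isoform Cox4i2 was at 11.0 ± 2.09 against 10.8 ± 3.78 TPM. Cox6a1 was at 590 ± 38.7 against 709 ± 77.4 TPM, with knockout 3 just below the highest control. Cox6b1 (498 ± 41.8 against 534 ± 65.2 TPM) exceeded Cox6b2 (51.7 ± 5.42 against 56.5 ± 3.57 TPM), and Ndufa4 (236 ± 13.5 against 249 ± 17.9 TPM) exceeded Ndufa4l2 (3.39 ± 0.375 against 4.14 ± 2.68 TPM). Cox7a1, the heart and muscle form, was the only nuclear member below the controls without overlap, at 6.15, 5.66 and 5.59 TPM in the controls and 3.66, 5.34 and 4.46 TPM in the knockouts (log2 difference -0.32; adjusted p = 0.548, limma). These values rest on 24 to 32 reads in the controls and 18 to 24 in the knockouts. Cox7a2, its general form, was at 256 ± 13.0 against 277 ± 15.7 TPM, and Cox7a2l, which takes part in joining complexes III and IV, at 397 ± 49.0 against 369 ± 12.4 TPM.

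In complex V, the ATP synthase, all 17 nuclear subunits lay higher in the knockout mean. Of these, 10 did so without overlap, or 58.8%, beside 8.14% of all tested genes and 11.9% of genes at or above 68.9 TPM. The median log2 difference was 0.17, and 0.0997 without control 3. The sums were 3920, 3826 and 3818 TPM in the controls and 4224, 4124 and 4171 TPM in the knockouts, separate and 8.25% apart between the means. The stalk subunit Atp5po was at 47.3, 45.9 and 46.6 TPM in the controls and at 57.2, 55.6 and 54.5 TPM in the knockouts, which gives 0.25 as the log2 difference (SE 0.065; adjusted p = 0.182, limma). The values within each group lay close together and well apart from the other group. Atp5f1d, the delta subunit of the central stalk, had the largest log2 difference of the complex, at 202, 207 and 193 TPM in the controls and 254, 263 and 208 TPM in the knockouts (0.26; limma adjusted p = 0.322). Knockout 3 lay only just above the controls, and without that library Atp5f1d had a log2 difference of 0.37 and passed limma (adjusted p = 0.0377). The core subunits Atp5f1a and Atp5f1b lay close to no difference. Atp5f1a, the most abundant nuclear member, was at 765 ± 46.9 against 779 ± 55.0 TPM, and Atp5f1b at 633 ± 25.3 against 664 ± 27.5 TPM.

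The c subunit, which forms the rotating ring of the ATP synthase, is encoded by 3 genes whose mature proteins are the same. Atp5mc3 was at 280, 284 and 278 TPM in the controls and at 324, 314 and 314 TPM in the knockouts (log2 difference 0.18, limma adjusted p = 0.237). Atp5mc1 was at 68.0, 70.6 and 65.5 TPM in the controls and at 79.4, 74.8 and 81.5 TPM in the knockouts (log2 difference 0.20; limma adjusted p = 0.287). Both were separate between the groups. For Atp5mc2, at 200, 198 and 212 TPM in the controls and 205, 203 and 202 TPM in the knockouts, the groups overlapped with a log2 difference of 0.0012 (SE 0.056). Whether the 3 genes differ in their response was not tested. Atp5if1, which blocks ATP hydrolysis by the synthase, was at 130, 140 and 117 TPM in the controls and at 155, 156 and 154 TPM in the knockouts, again separate (log2 difference 0.27; limma adjusted p = 0.213).

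Several nuclear members have near-identical processed copies elsewhere in the genome. The 2 stretches below, of the Ndufs5 transcript and of Ndufs5-ps (GENCODE M21, GRCm38), are shown because reads must be assigned on single bases. Capitals mark the mismatches, the only 2 in 319 aligned bases.
Ndufs5: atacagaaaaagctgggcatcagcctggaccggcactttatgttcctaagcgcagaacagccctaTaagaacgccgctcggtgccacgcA
Ndufs5-ps: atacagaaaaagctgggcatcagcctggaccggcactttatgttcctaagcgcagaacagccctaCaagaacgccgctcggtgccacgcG

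Ndufs5, an accessory subunit of complex I, was at 117, 120 and 57.1 TPM in the controls and at 76.4, 100 and 123 TPM in the knockouts. Ndufs5-ps was at 25.1, 10.6 and 81.3 TPM in the controls and at 96.1, 30.2 and 18.3 TPM in the knockouts. The copy was high in control 3 and knockout 1, the libraries in which Ndufs5 was lowest, so neither row separated the groups. Their sum was 142, 130 and 138 TPM in the controls and 172, 130 and 142 TPM in the knockouts, which varies far less than either row. The share of the sum given to the copy ran from 8.16% to 58.7%. Ndufa12-ps, identical to Ndufa12 at 400 of 402 aligned bases, stood apart in other libraries, at 50.6 TPM in control 1 and 84.3 TPM in knockout 3 against 16.1 to 22.5 TPM elsewhere. Cox6c2, with 224 of 231 bases identical to Cox6c, was highest in the same libraries, at 28.5 and 40.3 TPM against 12.4 to 16.0 TPM elsewhere. Ndufs6b, like its near copy Ndufs6 counted here as a subunit of complex I, had the largest log2 difference of all members, 0.76 (SE 0.32; limma adjusted p = 0.430), at only 3.90 ± 2.37 against 6.65 ± 0.350 TPM. This rests on 3, 5 and 9 reads in the controls and 10 in each knockout, and the groups overlapped. The values of such rows, and those of their parent genes, are uncertain to the extent that reads were split between them.

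**Figure D5:**
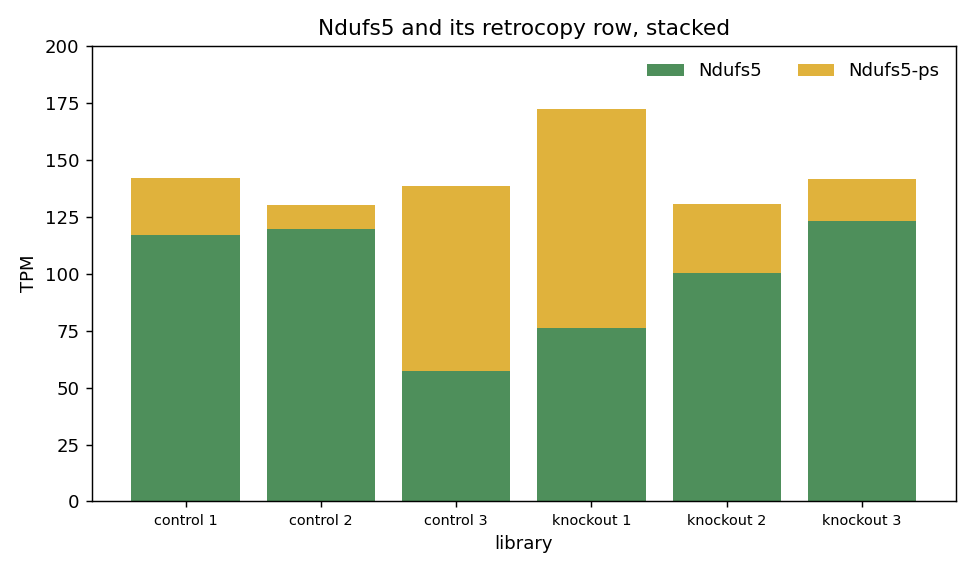
Stacked TPM of Ndufs5 (green) and Ndufs5-ps (yellow) in each of the 6 libraries. The boundary between the rows shifts from library to library while 5 of the 6 totals lie between 130 and 142 TPM and that of knockout 1 at 172 TPM.

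Nuclear respiratory chain genes are known targets of the transcription factors NRF1, GABP and YY1, so the promoters were searched. RefSeq windows (GRCm38.p6, 250 bases before to 50 after the start) were found for 68 of the 85 subunits, 73 windows in all, and were searched on both strands. The NRF1 site was searched as GCGCATGCG and as GCGCACGCG, and 13 of the 73 windows (17.8%) held either form, beside 3.36% of all 32851 windows. The YY1 letters AAGATGGCG were in 7 windows (9.59%, beside 1.40%) and the ETS letters CCGGAAGT, the family of GABP, in 5 (6.85%, beside 3.89%). The 13 subunits with an NRF1 match had a median log2 difference of 0.14 with 4 genes higher without overlap, and the 55 with a window and no match 0.13 with 16. Beside these counts stand 8.14% of all tested genes and 11.9% of genes at or above 68.9 TPM. In 0 of these windows did an NRF1 match overlap an ETS or YY1 match. For the YY1 and ETS letters, genes with and without a match were not compared. Promoters were printed only for genes with an NRF1 match. Cox5a, the nuclear member of complex IV with the smallest adjusted p, was not among the 13 subunits with a match. Shown here, with the match in capitals (in Cox6a1 both strands match, over 10 bases), are the promoters of the members with the smallest adjusted p in complexes I and V and of Cox6a1, all on the minus strand, at chr16:37654319-37654618, chr16:91931581-91931880 and chr5:115348909-115349208.
Ndufb4: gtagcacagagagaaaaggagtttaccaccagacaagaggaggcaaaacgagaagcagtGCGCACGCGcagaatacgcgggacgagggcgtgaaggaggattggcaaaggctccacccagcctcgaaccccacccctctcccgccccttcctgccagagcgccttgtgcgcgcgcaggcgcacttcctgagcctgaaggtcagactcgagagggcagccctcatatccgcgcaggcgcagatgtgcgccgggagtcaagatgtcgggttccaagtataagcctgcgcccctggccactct
Atp5po: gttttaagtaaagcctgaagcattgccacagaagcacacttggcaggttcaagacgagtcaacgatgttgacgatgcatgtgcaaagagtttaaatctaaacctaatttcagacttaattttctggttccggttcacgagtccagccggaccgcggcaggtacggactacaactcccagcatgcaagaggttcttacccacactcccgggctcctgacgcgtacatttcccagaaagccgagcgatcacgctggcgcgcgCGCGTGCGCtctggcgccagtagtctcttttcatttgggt
Cox6a1: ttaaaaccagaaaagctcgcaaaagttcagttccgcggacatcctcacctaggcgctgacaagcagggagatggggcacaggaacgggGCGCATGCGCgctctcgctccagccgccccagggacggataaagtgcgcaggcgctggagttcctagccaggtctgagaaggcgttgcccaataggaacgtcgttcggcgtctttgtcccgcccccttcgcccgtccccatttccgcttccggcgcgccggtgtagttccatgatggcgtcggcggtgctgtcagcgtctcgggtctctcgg

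The genes that build, feed and regulate the chain were taken from lists of their own. In none of the lists of mitochondrial genes did a member pass limma with adjustment over all genes, beside 0.131% of all tested genes higher and 0.313% lower. Unadjusted limma p under 0.05 was also counted, beside 5.35% of all tested genes higher and 5.92% lower. Higher were 10 of 78 genes of the mitochondrial ribosome, 3 of 13 electron carriers and 3 of 8 genes of the mitochondrial stress response. So were 2 of 13 regulators, 2 of 20 import genes and 1 of 13 assembly genes of complexes II and III. Lower was 1 of 5 assembly genes of the ATP synthase, and 0 genes of the other mitochondrial lists differed. The 78 proteins of the mitochondrial ribosome, which translate the mitochondrial mRNAs, had 68 higher in the knockout mean, 17 higher (background 8.14%) and 1 lower (background 8.49%) without overlap and a median log2 difference of 0.099. Mrps21 was at 192 ± 20.5 against 225 ± 2.64 TPM and Mrpl34 at 178 ± 17.9 against 187 ± 25.4 TPM. The 82 cytosolic ribosomal protein genes, a list added after the values were seen, had a median of -0.025. Of these, 1 was higher (background 8.14%) and 3 were lower (background 8.49%) without overlap. Rps3a1 was at 5386 ± 151 against 4933 ± 336 TPM and Rps15 at 3495 ± 149 against 3461 ± 181 TPM.

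The 13 electron carriers and further subunits had a median log2 difference of 0.047. Of these, 3 lay higher without overlap, beside 8.14% of all tested genes. They were Cyc1, the cytochrome c gene Cycs (57.0 ± 2.15 against 66.6 ± 4.22 TPM) and Coq7 (14.9 ± 1.43 against 18.3 ± 1.83 TPM). Assembly genes had medians near 0: 0.017 for the 13 of complexes II and III, among them Uqcc2 at 149 ± 18.5 against 192 ± 8.15 TPM (limma adjusted p = 0.169), 0.013 for the 9 others of complex I, -0.0055 for the 24 of complex IV and 0.026 for the 5 of the ATP synthase. The 18 genes of mitochondrial DNA upkeep and transcription had a median of -0.016, with Tfam, which packages mitochondrial DNA, at 57.2 ± 1.06 against 59.1 ± 1.99 TPM. The 20 genes of mitochondrial RNA processing had a median of -0.032. The 13 tested regulators had a median of 0.0081, and Chchd2 was at 303 ± 20.0 against 348 ± 27.4 TPM. Enzymes of the tricarboxylic acid cycle, 18 in number, summed to between 2033 and 2045 TPM in the controls and between 2041 and 2097 TPM in the knockouts, with a median of 0.017. The 20 genes of protein import had a median of 0.054, and the 8 of the mitochondrial stress response 0.15, with Atf4 at 203 ± 2.23 against 232 ± 16.0 TPM.

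Markers of cells in or beside the mesonephros moved as well, and in bulk tissue fewer cells of a type and less RNA per cell cannot be told apart. At a limma adjusted p under 0.05, 0.131% of all tested genes were higher and 0.313% lower, so few calls can be awaited in short lists. Duct and tubule epithelium had 2 of 12 tested markers lower and 0 higher in limma (Lhx1 and Calb1), with a summed level of 507 to 560 TPM in the controls and 444 to 495 TPM in the knockouts. Gonadal soma had 3 of 8 higher and 0 lower (Nr5a1, Gata4 and Lhx9), summing to 59.1 to 84.2 TPM against 118 to 207 TPM. The mesenchyme had 1 of 10 higher (Tcf21) and 1 lower (Pdgfrb), summing to 2517 to 2835 TPM against 2368 to 2515 TPM. Of 15 erythroid markers none passed, and 14 had a positive log2 difference. The sum of the 15 was 13312 to 17645 TPM against 16606 to 18534 TPM, with control 1 the highest control as it was for the nuclear subunits. At p under 0.05 without adjustment (background 5.35% higher and 5.92% lower), 5 gonadal, 3 erythroid, 2 striated muscle and 2 mesenchymal markers were higher, and 4 endothelial, 3 mesenchymal and 3 duct and tubule markers were lower. None passed limma among 8 macrophage markers (118 to 168 TPM against 118 to 148 TPM), 9 endothelial markers (459 to 496 TPM against 387 to 428 TPM), 8 germ cell markers (39.1 to 83.0 TPM against 44.1 to 99.4 TPM) or 3 tested striated muscle markers (26.1 to 33.2 TPM against 37.5 to 97.8 TPM). By the adjusted p of the authors' deposited table (background 1.38% higher and 2.17% lower), 5 striated muscle markers, 4 of the gonadal soma and 2 of the mesenchyme were higher. Lower were 3 of duct and tubule epithelium, 3 of the mesenchyme and 2 of the endothelium. These counts also cover markers below the level set for testing: of 10 striated muscle markers with values, only 3 reached it. The part of cell makeup in the respiratory chain values was not tested. With the erythroid genes left out of each library's total, the median log2 differences were 0.19 for the mitochondrial mRNAs and 0.13 for the nuclear members.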

How the data were processed

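Poly(A)-selected RNA of 6 E12.5 mesonephroi was read from both ends over 150 bases, per the labels' protocols. The authors deposited 1 TPM column per embryo, per the file headers, along with their log2 fold change, p-value and adjusted p-value (empty for 1175 genes). Build GRCm39 and DESeq2 come from the submitters' processing notes. The aligner, the counter, its strand setting and its handling of reads with several matches are unknown: not given in the sources used here. Positions are absent from the table.

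Libraries were grouped by title. Genes with at least 1 TPM in at least 3 libraries (17577) were tested with limma 3.58.1 (R 4.3.3) on log2(TPM + 1), allowing the variance to follow the mean, and with genotype as the only term. Benjamini-Hochberg adjustment ran over all of them, with a threshold of 0.05. Such differences understate the change of low genes. Members and lists were described by counts, medians and summed TPM, without a test. The members, lists and alternatives were chosen with earlier results of these data known. The gene rule named all mitochondrial rows and, per complex, the most abundant subunit, the extremes of the log2 difference among means of at least 5 TPM, core subunits and isoforms. It took up to 4 members past the test, or at most the 2 most abundant, per other list. Other genes, such as Ndufb4, Ndufs8, Ndufb10, Atp5po, Cyc1, Cycs and the pseudogene rows, were picked after their values were seen.

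For all 20033 genes the 6 values could be turned into whole reads, to within 0.01 reads. A factor common to a gene's 6 values is lost, so the totals are lower bounds. Alternatives were other pseudocounts, filters and scalings, limma-voom on these reads, a replicate block and omission of each library. Scaling without RNAs lacking a poly(A) tail was added after seeing the data. Libraries of a group differed beyond sampling noise (chi-square per degree of freedom at least 7.24). The steps were tested on simulated data. Sequences were read with Biopython 1.88 from GENCODE M21 transcripts, taking the longest reading frame of nuclear genes, and from RefSeq promoters.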

Additional observations from a re-analysis of the deposited data

How the results depend on the processing

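The direction of the median did not reverse under any of the 14 other settings for the groups followed through them. These were the mitochondrial mRNAs and ribosomal RNAs, the nuclear members and the nuclear subunits of each complex. Of the 14 settings, the replicate block could not change a difference, as the design is balanced. The transfer RNAs, Ndufaf factors and pseudogene rows were not followed as groups. Of the 48 named members, 37 kept their sign in all settings. The median log2 difference of the mitochondrial mRNAs ran from 0.17 to 0.21 and that of the nuclear members from 0.087 to 0.17. Limma-voom on the recovered reads put 1 member past the threshold, mt-Rnr2, which was lower. With 1 library left out, between 0 and 1 members were higher and 0 lower past the test. Members higher without overlap then numbered 33 to 55 and those lower without overlap 3 to 5, where fewer libraries leave less room for overlap. Over those 6 omissions the complex V median ran from 0.0997 to 0.205 and that of complex II from 0.0512 to 0.103. The causes were not tested.

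Atp5mc2 had a log2 difference of -0.0154 when scaled without RNAs lacking a poly(A) tail and mitochondrial ribosomal RNA. On omission of single libraries, sign changes were seen in Atp5mc2 (-0.0172 to 0.0327), Uqcrc1 (-0.0603 to 0.0159), Atp5f1a (-0.029 to 0.0719), Cox4i2 (-0.287 to 0.199), Cox7a2l (-0.148 to 0.00302), mt-Te (-0.23 to 0.399), mt-Tp (-0.0316 to 0.132), Ndufa4l2 (-0.3 to 0.563), Ndufs1 (-0.0613 to 0.0364), Uqcrh (-0.00455 to 0.0767) and Cox6c2 (-0.166 to 0.595). None of these had passed the test. Over all genes, the count past the test was 78, against 296 with limma-voom and 13 to 242 on omission, the highest without knockout 3.

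Mouse numbers are shared by both groups but did not pair the libraries: deviations of same-numbered libraries had correlations of -0.0644, 0.0504 and -0.0512 across 17577 genes, and not every library correlated best with its own number. With the replicate number as a block, 0 members passed in either direction and 17 genes of all passed. In this balanced design a block cannot change a log2 difference. The medians of 0.1834 for the mitochondrial mRNAs and 0.1262 for the nuclear members were therefore the same by construction. Summed TPM and overlap have no value under the other pseudocount, no filter, limma-voom or the block. Depth limits mt-Atp8, mt-Nd4l, mt-Te, Cox7a1, Ndufa4l2, Ndufb4b and Ndufs6b, which held at most 61 reads in any library, Ndufs6b at most 10.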
